A study of Mus musculus with 29 samples.

Results

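Amputated mouse digits collected 14 days after amputation were compared with amputated digits collected 7 days after amputation, in the second set of libraries of a study on nerve supply and digit tip regeneration. Each group held 3 libraries, so the comparison used 6 of the 29 libraries of the series, and all 6 came from mice with spared nerve injury (SNI). In this operation 2 branches of the left sciatic nerve, the tibial and the common peroneal, were cut. Amputation through the third phalanx of a left hind digit followed 5 days later, and every group described here carries the nerve injury. The second set also held unamputated digits of SNI mice labelled day 7 and day 14, with 3 libraries each. The first set held, among sham-operated and day 21 animals, 3 SNI libraries each at day 7 and day 14. RNA was polyadenylated RNA of the digit beyond the joint at its base, after removal of the nail. The labels name the operation and the day but no strain, sex or age, and each library was a bulk sample of the remaining digit tissue. SNI leaves the sural branch of the nerve uncut, so it is a partial denervation. Replicates are labelled as biological replicates.

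After loss of its tip, the mouse digit heals in overlapping stages. Osteoclasts first resorb the bone stump, the epidermis closes over the wound, and a blastema of proliferating mesenchyme then forms and ossifies directly into new bone. Nail and hair are built of hard keratins embedded in a matrix of keratin-associated proteins, whose genes, named Krtap in mouse, lie in clusters and are switched on in terminally differentiating shaft cells.

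Between 31274245 and 43315729 reads were counted per library in the second set, and 17475 genes passed the low-count filter. Values are given as CPM, read counts scaled to a common library size, and fold changes as log2 of day 14 over day 7, with a standard error (SE). A gene was called when the adjusted p of edgeR's quasi-likelihood test, with Benjamini-Hochberg adjustment over all genes tested, was under 0.05. The tissue label was borne out for skin, with the basal keratinocyte gene Krt5 at 4124 to 5309 CPM in the 6 amputated libraries.

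In amputated digits 106 genes were called, 0.607% of those tested. Of these, 101 were higher at day 14 (0.578%) and 5 were lower (0.0286%), and 2327 genes had an unadjusted p under 0.05. Those that rose were 16 Krtap genes, 5 keratins, 45 predicted gene models and 35 other genes, and the 12 largest rises among genes named by rule were 11 Krtap genes and the keratin Krt40. The calls depended on individual day 7 libraries. Without day 7 replicate 2 there were 3 calls, Krt32, Krt82 and Actbl2, and without day 7 replicate 3 there were 17, while without day 7 replicate 1 the genes that rose numbered 67. In the fit on the 6 amputated libraries alone 70 genes were called, and DESeq2, run on all 12 second-set libraries, called 451, or 2.83% of those it tested.

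Every tested Krtap gene had a higher mean level at day 14 than at day 7, and 16 of them passed the test. The summed level of its 57 tested genes was 4492, 2947 and 2163 CPM in the 3 day 14 libraries and 1120, 1036 and 985 CPM in the 3 day 7 libraries. The lowest day 14 library thus stood 1.93-fold above the highest day 7 library, and the means differed 3.06-fold, at 3201 ± 1185 CPM (SD, n = 3) against 1047 ± 68.4 CPM (SD, n = 3). All 57 log2 fold changes were positive, from 0.33 to 5.37 with a median of 1.85, whereas 8773 of all 17475 genes were positive and their median was 0.00. The 16 called were 28.1% of the family, against 0.578% of all genes that were called higher. In 54 of the 57 there was no overlap between the groups, against 8.78% of all genes that were higher without overlap. The number of Krtap genes called was 0 without day 7 replicate 2, 1 without day 7 replicate 3, 2 without a low-count filter and 44 with DESeq2. All 57 stayed positive when any library was left out and under every other fit tried. In bulk tissue a larger number of cells that make these transcripts and more RNA per cell cannot be told apart.

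**Figure D1:**
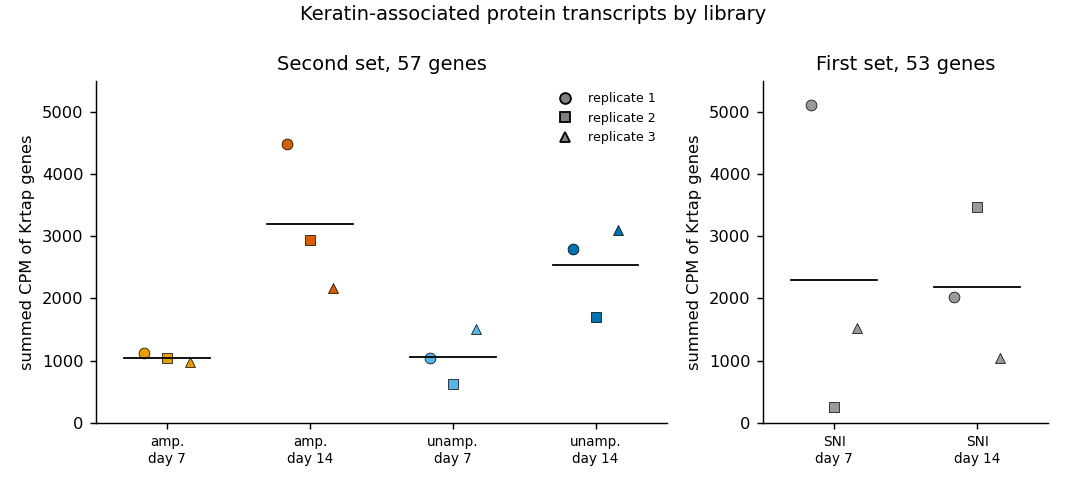
Summed CPM of the Krtap genes on a linear axis in each library, with the second set on the left (amp., amputated; unamp., unamputated) and the SNI libraries of the first set on the right. Points are libraries and bars are group means; in the second set both kinds of digit have day 14 libraries that all lie above their day 7 libraries, whereas the 2 first-set groups overlap.

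Within the family the day 14 libraries kept 1 order, with replicate 1 above replicate 2 and replicate 2 above replicate 3 in 55 of 57 genes. Krtap5-1, which encodes a cysteine-rich protein of the shaft, had the largest rise among the genes named by rule. It stood at 25.8, 13.3 and 10.7 CPM at day 14 and at 4.27, 2.49 and 2.45 CPM at day 7. The groups did not overlap, and the log2 fold change was 2.43 ± 0.36 (SE, adjusted p = 0.011). Krtap29-1 was at 3.64, 1.99 and 1.91 CPM against 0.382, 0.559 and 0.533 CPM, a log2 fold change of 2.36 ± 0.32 (SE, adjusted p = 0.00634). Krtap17-1, a more abundant member, was at 138, 106 and 75.1 CPM against 30.1, 20.5 and 23.7 CPM, a log2 fold change of 2.10 ± 0.29 (SE, adjusted p = 0.0107). Its lowest day 14 value lay well above its highest day 7 value. The other Krtap genes named by rule, Krtap5-4, Krtap5-3, Krtap5-5, Krtap28-10, Krtap5-2, Krtap28-13, Krtap10-4 and Krtap12-1, rose by log2 fold changes of 2.08 to 2.35, with adjusted p from 0.0107 to 0.0284.

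Calls were unevenly spread over the subfamilies. All 5 tested Krtap5 genes were called, with log2 fold changes of 2.21 to 2.43, as were both Krtap10 genes, both Krtap28 genes, and the single tested Krtap12, Krtap17, Krtap24, Krtap26 and Krtap29 genes. In addition 1 of 2 Krtap16 genes and 1 of 8 Krtap4 genes were called. The largest fold changes belonged to a subfamily without a call: the 6 Krtap19 genes, which encode small proteins rich in glycine and tyrosine, had log2 fold changes of 2.97 to 5.37. Their summed level was 25.4 to 104 CPM at day 14 and 2.82 to 7.61 CPM at day 7, yet the smallest adjusted p among them was 0.103. The smallest change, 0.33, was in the Krtap13 subfamily, followed by 0.75 in the Krtap6 subfamily.

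The promoters of genes named by rule are shown for the TATAAA letters found in many, though not all, Krtap promoters. For Krtap5-1, Krtap10-4, Krtap17-1 and the keratin Krt40, the 120 bases before the annotated start are given 5′ to 3′, from RefSeq on GRCm38.p6, with TATAAA on the sense strand in capitals.
Krtap5-1 (chr7:142297135-142297254, minus strand): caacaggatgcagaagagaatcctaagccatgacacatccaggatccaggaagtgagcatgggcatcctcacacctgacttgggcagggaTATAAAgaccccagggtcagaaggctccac
Krtap10-4 (chr10:77827071-77827190, minus strand): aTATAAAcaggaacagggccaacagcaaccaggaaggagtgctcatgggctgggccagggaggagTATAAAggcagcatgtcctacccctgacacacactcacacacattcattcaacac
Krtap17-1 (chr11:99993995-99994114, minus strand): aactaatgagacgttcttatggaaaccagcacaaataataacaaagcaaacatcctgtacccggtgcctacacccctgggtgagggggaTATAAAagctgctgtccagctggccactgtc
Krt40 (chr11:99543221-99543340, minus strand): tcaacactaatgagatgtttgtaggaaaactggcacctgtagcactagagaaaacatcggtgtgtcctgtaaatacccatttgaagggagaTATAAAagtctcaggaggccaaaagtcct
The TATAAA nearest the start began 30 bases before it in Krtap5-1, 55 in Krtap10-4, 31 in Krtap17-1 and 29 in Krt40. Over the 51 tested Krtap genes with a RefSeq window, 34 (66.7%) held TATAAA on the sense strand within the 50 bases before the start, against 863 of all 32851 windows (2.63%). On either strand of the whole window of 250 bases before to 50 after the start, 42 (82.4%) held TATAAA against 13.6% of all windows. The letters CTTTGA, the core bound by TCF and LEF factors, were in 15 of 51 (29.4%) on either strand against 16.0% of all windows. Among the called Krtap genes with a window they were in 2 of 13 (15.4%), near the share of all windows. CGTAAA, a core of posterior HOX factors such as the hair regulator HOXC13, was in 1 of 51 (1.96%) against 3.03%. These counts describe letters in the windows only.

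Keratin genes called with the family were those of the hair shaft and one of the outer sheath. Krt82, which encodes a keratin of the shaft cuticle, was at 69.8, 58.2 and 48.9 CPM at day 14 and at 19.5, 19.7 and 17.4 CPM at day 7. Every day 14 library lay above every day 7 library, with a log2 fold change of 1.64 ± 0.17 (SE, adjusted p = 0.00336). Krt32, another cuticle keratin, was at 88.1, 71.0 and 55.7 CPM against 19.6, 22.1 and 17.3 CPM, a log2 fold change of 1.86 ± 0.20 (SE, adjusted p = 0.00555). Both calls held when any of the 12 second-set libraries was left out. Krt40 was at 20.7, 14.7 and 10.5 CPM against 3.89, 3.18 and 3.33 CPM, a log2 fold change of 2.14 ± 0.27 (SE, adjusted p = 0.00592). Krt39 had a log2 fold change of 1.19 ± 0.23 (SE, adjusted p = 0.0299).

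A list of hair and nail keratins also held the inner root sheath keratins Krt71 and Krt72. Of its 14 genes 13 were tested and all 13 were positive. Of these, 12 were higher without overlap, against 8.78% of all genes, and 1, Krt32, was called. DESeq2 called 9 of them, among them Krt33a, Krt86 and Krt35 below. The median of the list, as log2 fold change, was 1.16, against 0.00 for all genes. Krt33a, a keratin of the shaft cortex, was at 286, 172 and 121 CPM at day 14 and 62.0, 62.7 and 53.0 CPM at day 7, and its adjusted p was 0.136. For Krt86 the log2 fold change was 1.44 (adjusted p = 0.126) and for Krt35 it was 0.81 (adjusted p = 0.0727). The inner root sheath keratins counted on this list stood higher without being called. Krt71 was at 629, 749 and 463 CPM at day 14 and 267, 185 and 312 CPM at day 7, with a log2 fold change of 1.27 (adjusted p = 0.247).

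Other genes known from the hair shaft and its sheaths were among the calls. S100a3, a calcium-binding protein of cuticle cells, was at 430, 412 and 293 CPM at day 14 and 142, 142 and 124 CPM at day 7. The groups stood far apart, with a log2 fold change of 1.47 ± 0.19 (SE, adjusted p = 0.00763). Padi3, a peptidylarginine deiminase of the follicle, rose by 1.46 ± 0.26 on the log2 scale (SE, adjusted p = 0.0248). Vsig8, which encodes an immunoglobulin-domain membrane protein of hair, was at 247, 178 and 143 CPM against 54.6, 47.3 and 50.8 CPM, a log2 fold change of 1.90 ± 0.22 (SE, adjusted p = 0.00592). Crym, which encodes a thyroid hormone-binding crystallin, and Elf5, an epithelial ETS factor, rose by 1.51 and 1.41 on the log2 scale (adjusted p = 0.011 and 0.0107). Outside these genes, Actbl2, a beta-actin-like gene on none of the hair lists, was called with every library left out in turn. Actbl2 rose by 2.07 ± 0.22 (SE, adjusted p = 0.00336). A list of 15 root sheath and cortex genes, drawn up after values had been seen, was positive throughout with a median of 1.31. Its 3 calls were S100a3, Crym and Padi3, already given above, so the list is no separate evidence. Of all genes, 0.578% were called higher.

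Upstream regulators of hair and nail had small fold changes. Of 12 such genes, listed after values had been seen, 11 were positive, none was called and the median log2 fold change was 0.22. Hoxc13, a homeobox activator of hair keratin genes, was at 73.8, 58.0 and 61.9 CPM at day 14 and 43.6, 58.9 and 53.8 CPM at day 7, and the groups overlapped (log2 fold change 0.31 ± 0.13 SE, adjusted p = 0.342). Foxn1, the gene lost in nude mice, overlapped as well, with a log2 fold change of 0.22 (adjusted p = 0.507). Msx2, a homeobox gene of nail and blastema, was higher without overlap at 0.64 ± 0.16 (SE), and its adjusted p was 0.109. Sp6, a zinc-finger factor of hair and tooth epithelium that was not on this list, passed the test at 0.51 ± 0.10 (SE, adjusted p = 0.0271). Elf5, called above, was not on this list either.

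Among the 45 predicted gene models called higher, 35 had a Krtap gene as the next named gene on at least 1 side. Many of these sequences share stretches with other genes. In a median of 31.4% of their 50-base words they matched another gene, and 36 of the 45 matched in over 10% of words. For the 16 called Krtap genes the median was 8.21%, with 7 over 10%. Reads of such genes may be split or shared between genes, so the change of a single gene is less certain than that of the family sum.

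The hair-shaft change was also present in unamputated digits. There 53 genes were called (0.303%), all of them higher at day 14, and 50 of the 53 were among the 101 of the amputated digits. The summed Krtap level was 2793, 1703 and 3100 CPM in unamputated day 14 libraries and 1047, 629 and 1517 CPM at day 7. The median log2 fold change of the family was 1.52, 56 of 57 genes were positive and 7 were called. The difference of the change between amputated and unamputated digits, tested as an interaction, reached the threshold for none of the 17475 genes (0%) with edgeR. At an unadjusted p under 0.05 there were 1092, limma voom called 0, and DESeq2 called 18, or 0.101% of those it tested. For the Krtap genes the median difference was 0.35 on the log2 scale, with median bounds of the 95% intervals at -0.85 and 1.57. The unamputated count was unstable as well, at 0 when unamputated day 14 replicate 1 or 3, unamputated day 7 replicate 1 or 2, amputated day 14 replicate 2 or amputated day 7 replicate 3 was left out, and at 7, 8 and 27 without amputated day 7 replicate 1, amputated day 7 replicate 2 and unamputated day 7 replicate 3.

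The first set gave no such difference between its SNI day 14 and day 7 groups, which were fitted in their own table. None of 16084 genes was called there (0%) and 487 had an unadjusted p under 0.05, while DESeq2 called 1. Summed Krtap levels were 2025, 3476 and 1036 CPM at day 14 and 5121, 257 and 1522 CPM at day 7, so the groups overlapped. Of 53 Krtap genes measured 21 were positive, with a median log2 fold change of -0.08 and a range of -1.25 to 0.72. Of the 101 genes that rose in the second set, 63 were measured and 19 were positive, against 8048 of all 14878 genes measured in both sets. Across those 14878 genes the changes of the 2 sets had a Spearman correlation of -0.251 and a Pearson correlation of -0.0555. Replicates of the first set varied more, with a common biological coefficient of variation of 0.393 against 0.17. The 2 sets were normalised apart, and their difference was not tested.

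**Figure D2:**
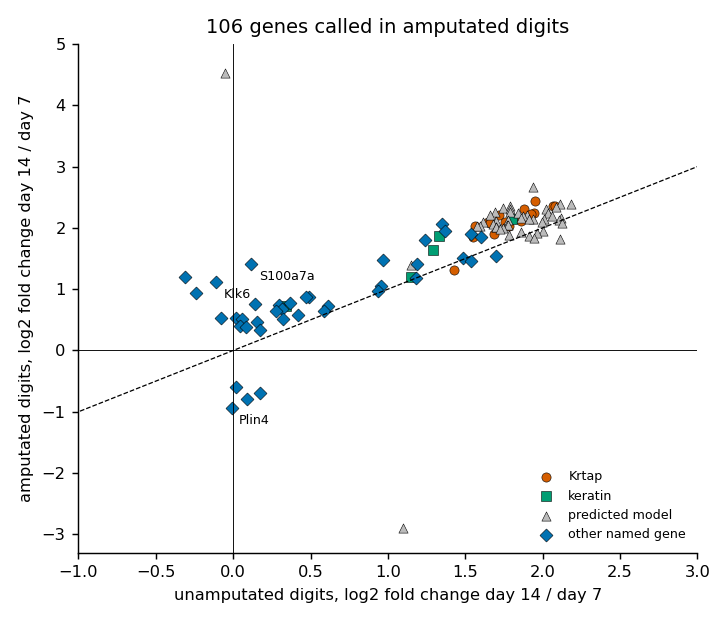
Log2 fold change of day 14 over day 7 in unamputated digits (horizontal) and amputated digits (vertical) for the 106 genes called in amputated digits, with symbols by gene group and a dashed line at equal change. Krtap genes, keratins of the shaft and most predicted models lie near the line with large changes in both, whereas a second group, with Klk6 and S100a7a, lies near 0 on the horizontal axis.

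A second group of called genes changed in amputated digits and had a change near 0 in unamputated digits. Of the 101 genes higher at day 14, 11 had an unamputated log2 fold change under 0.2 in size. These were S100a7a, Klk6, Crct1, Csta1, Pinlyp, Fgf22, Cd82, Otub2, Fgl2, Scand1 and the predicted model Gm14268. For 19 of the 101, and for all 5 genes that fell, the difference between amputated and unamputated digits had an unadjusted p under 0.05. Of all 17475 genes, 1092 did. The called genes were picked by their amputated change, which also enters the difference, so these counts are no separate evidence. None passed adjustment with edgeR, so that no gene was shown to differ between the tissues by this test.

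Several of these genes act in the outer epidermis, where serine proteases of the kallikrein family and their inhibitors regulate shedding of cornified cells. Klk6, a kallikrein, was at 18.9, 17.7 and 15.7 CPM at day 14 and 8.02, 7.37 and 8.78 CPM at day 7. The groups did not overlap, with a log2 fold change of 1.12 ± 0.15 (SE, adjusted p = 0.00626). In unamputated digits it was at 10.1, 11.4 and 10.7 CPM at day 14 and 9.13, 12.4 and 13.3 CPM at day 7. The difference between the changes was 1.23, with a 95% interval of 0.78 to 1.67 and an unadjusted p of 5.2e-05, and DESeq2 called it. S100a7a, a psoriasin-like S100 protein, was at 5.86, 5.51 and 4.31 CPM against 2.13, 1.52 and 2.24 CPM, a log2 fold change of 1.41 ± 0.21 (SE, adjusted p = 0.00877). Its unamputated libraries spanned 3.43 to 5.03 CPM over both days. The day 7 amputated libraries of S100a7a lay below that range, and its highest day 14 libraries lay above it. For Klk6 the day 7 amputated libraries lay below every unamputated library and the day 14 ones above every unamputated library.

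Amputated day 7 libraries also lay below every unamputated library for Spink7 and Crct1. The day 14 libraries of Spink7 and Crct1 did not rise above the unamputated range. Spink7, a Kazal-type serine protease inhibitor, was at 22.3, 13.7 and 16.4 CPM at day 14 and 10.2, 9.12 and 7.87 CPM at day 7, a log2 fold change of 0.95 ± 0.17 (SE, adjusted p = 0.0259). Its unamputated libraries lay between 16.3 and 24.0 CPM. Csta1, a stefin A inhibitor of cysteine proteases, was at 93.6, 106 and 109 CPM against 69.8, 73.5 and 71.3 CPM, a log2 fold change of 0.52 ± 0.10 (SE, adjusted p = 0.0416), a call that held in 3 of the 12 fits that left out a library. Crct1, from the epidermal differentiation complex, was at 569, 654 and 592 CPM against 398, 442 and 419 CPM, a log2 fold change of 0.53 ± 0.08 (SE, adjusted p = 0.0113). The 6 unamputated libraries of Crct1 spanned 594 to 698 CPM. Cgref1, a secreted EF-hand protein, rose by 1.20 ± 0.24 (SE, adjusted p = 0.0476), a call that held in 1 of those 12 fits.

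Cst6, which encodes the cystatin M/E of cornifying epithelium, was at 723, 836 and 635 CPM at day 14 and 441, 450 and 475 CPM at day 7, with a log2 fold change of 0.68 ± 0.11 (SE, adjusted p = 0.0107). Klk10 rose by 0.87 ± 0.13 (SE, adjusted p = 0.00857) and the phospholipase inhibitor gene Pinlyp by 0.76 ± 0.13 (SE, adjusted p = 0.0179). Fgf22, a fibroblast growth factor of skin, was at 27.2, 26.5 and 28.1 CPM against 19.6, 18.9 and 20.7 CPM, a log2 fold change of 0.47 ± 0.08 (SE, adjusted p = 0.0173). Its replicates were close together within each group. Cst6, Klk10, Spink7 and Cgref1 were not among the genes with an unamputated change under 0.2 in size.

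**Figure D3:**
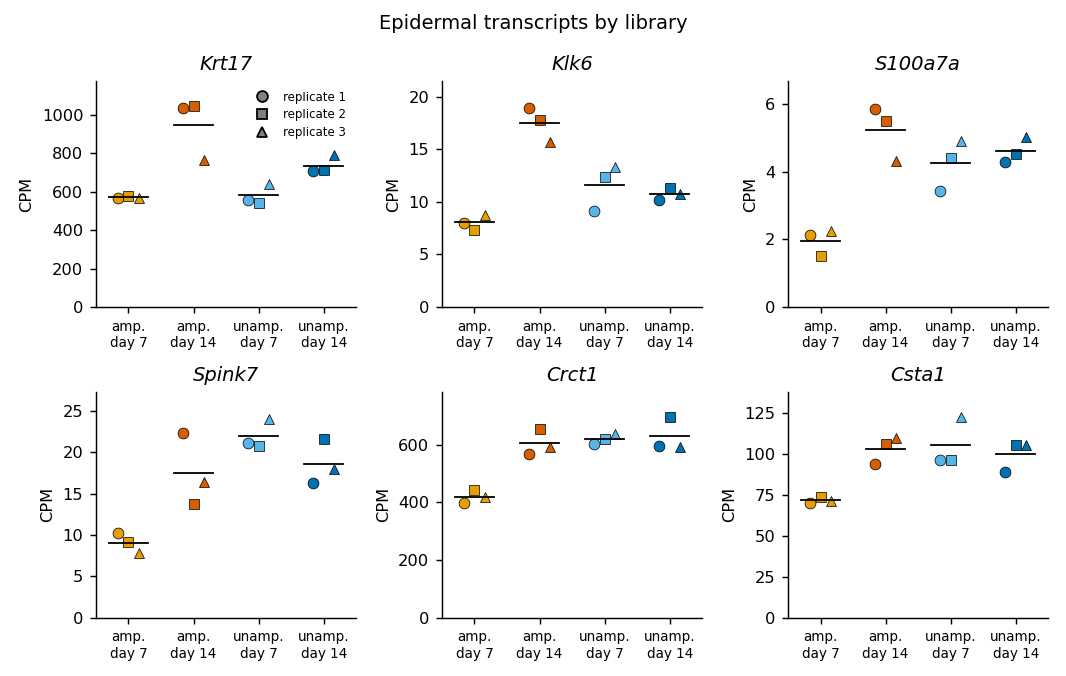
CPM of 6 epidermal genes in each library of the second set, on linear axes from 0, with points for libraries and bars for group means. In all 6 genes the amputated day 14 libraries lie above the amputated day 7 libraries; for Spink7, Crct1 and Csta1 the amputated day 7 libraries lie below every unamputated library.

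Keratinocyte genes of wounds and of normal cornification were described from lists. On the wound list, which holds genes induced at healing edges, 12 of 13 tested genes were positive, 6 were higher without overlap (8.78% of all genes were) and 1 was called (0.578% of all genes), with a median log2 fold change of 0.58 against -0.21 in unamputated digits. Day 7 replicate 2 was the lowest of its group in 11 of the 13, with a summed level of 1343 CPM against 2079 and 2123 CPM. Day 14 replicate 1 was the highest of its group in 9, with 3718 CPM against 2430 and 2242 CPM. The called gene was Krt17, a keratin of the outer root sheath, the nail bed and activated epidermis. It was at 1036, 1043 and 763 CPM at day 14 and 566, 579 and 569 CPM at day 7, a log2 fold change of 0.73 ± 0.11 (SE, adjusted p = 0.0109). The small proline-rich gene Sprr1a was at 240, 229 and 189 CPM against 115, 101 and 125 CPM, without overlap, and its adjusted p was 0.125. Stfa3, another stefin, had a log2 fold change of 0.76 (adjusted p = 0.115), and Sprr2h one of 0.85 (adjusted p = 0.327).

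On the list of differentiated epidermis 13 of 14 genes were positive, 6 were higher without overlap, against 8.78% of all genes, and none was called, with a median of 0.22. Day 7 replicate 2 was the highest of its group in 13 of the 14 and replicate 1 the lowest in 10. The 4 with the smallest p had log2 fold changes close to each other. Asprv1, a protease that processes filaggrin, was at 2750, 2738 and 2584 CPM at day 14 and 1883, 2184 and 1955 CPM at day 7, a log2 fold change of 0.42 ± 0.09 (SE, adjusted p = 0.0636). Calm4 stood at 0.45 (adjusted p = 0.106), the envelope protein gene Lor at 0.42 (adjusted p = 0.126) and the suprabasal keratin Krt1 at 0.42 (adjusted p = 0.144). Krt1 spanned 7856 to 12800 CPM over the amputated libraries and 14349 to 21055 CPM over the unamputated ones.

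**Figure D4:**
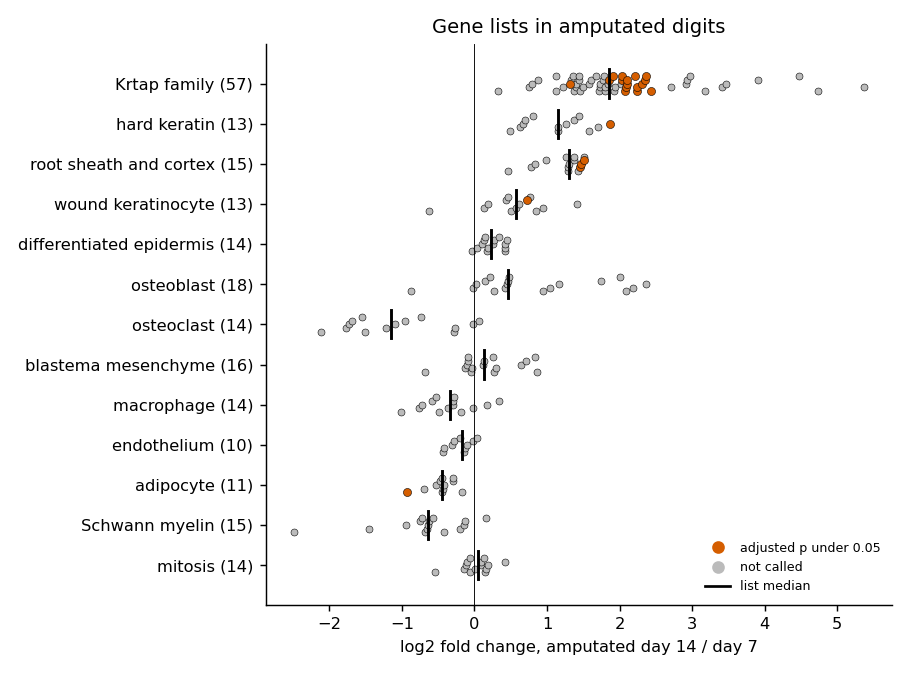
Log2 fold change of day 14 over day 7 in amputated digits for the tested members of each list, with the number tested in brackets, a vertical bar at the list median and called genes in orange. Krtap, hard keratin and root sheath genes lie to the right of 0, and osteoclast, adipocyte and Schwann myelin genes lie mostly to the left with a single call, Plin4.

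Bone-forming genes varied widely among the day 14 libraries. The 18 genes of the osteoblast list had a median log2 fold change of 0.47, 16 were positive, 3 were higher without overlap, against 8.78% of all genes, and none was called. Col1a1, the main chain of bone collagen, was at 7901, 1188 and 6832 CPM at day 14 and 1887, 860 and 985 CPM at day 7. Day 14 replicates 1 and 3 were high, and replicate 2 lay within the range of day 7. The log2 fold change was 2.09 ± 0.62 (SE) and the adjusted p was 0.211, or 0.0244 without day 14 replicate 2. DESeq2 gave 0.00466 and limma voom 0.0388. In 16 of the 18 osteoblast genes day 14 replicate 2 was the lowest of its group, and without it 4 of the 18 were called. In that fit 119 of all 17848 genes tested were called.

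Bglap, which encodes osteocalcin of mature osteoblasts, was at 104, 31.1 and 106 CPM at day 14 and 12.4, 14.7 and 19.6 CPM at day 7. Here replicate 2 was also the lowest at day 14, but the groups did not overlap, with a log2 fold change of 2.37 ± 0.65 (SE, adjusted p = 0.182). Ifitm5, a membrane protein of mineralising osteoblasts, was at 6.24, 1.29 and 2.66 CPM against 1.03, 0.610 and 0.587 CPM, a log2 fold change of 2.19 ± 0.48 (SE, adjusted p = 0.07). Sparc, the matrix protein osteonectin, was at 2254, 911 and 1982 CPM against 1174, 641 and 678 CPM (log2 fold change 1.05, adjusted p = 0.217). For Sp7, the osteoblast transcription factor, the groups overlapped at 14.1, 3.28 and 12.0 CPM against 6.33, 3.89 and 5.12 CPM. In unamputated digits Col1a1 spanned 845 to 1594 CPM with a log2 fold change of 0.04. Collagens and their processing enzymes, on a list of 15 tested genes drawn up after values had been seen, were positive in 15 of 15 with a median of 0.75 and no call. In all 15 the lowest day 14 library was replicate 2.

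Osteoclast genes were mostly lower at day 14, and a single day 7 library stood far above the others. Of 14 tested genes 13 were negative and 5 were lower without overlap, against 7.75% of all genes, with a median log2 fold change of -1.15 and no call. Acp5, the tartrate-resistant acid phosphatase, was at 99.4, 116 and 119 CPM at day 14 and 386, 138 and 126 CPM at day 7. Ctsk, the collagen-degrading cathepsin K, was at 148, 93.8 and 171 CPM against 684, 155 and 119 CPM, so that only day 7 replicate 1 stood above the rest. That library was the highest of day 7 in all 14 genes. Without it the list median was -0.23 and the log2 fold change of Ctsk was 0.01. Itgb3, a subunit of the osteoclast integrin, stood lower in all day 14 libraries, at 9.44, 11.7 and 14.9 CPM against 59.2, 22.4 and 20.2 CPM (log2 fold change -1.50 ± 0.37 SE, adjusted p = 0.122). Tcirg1, a proton pump subunit, had a log2 fold change of -1.09 (adjusted p = 0.123), Tnfrsf11a, the receptor RANK, one of -0.74 (adjusted p = 0.143) and Oscar one of -1.77 (adjusted p = 0.303).

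**Figure D5:**
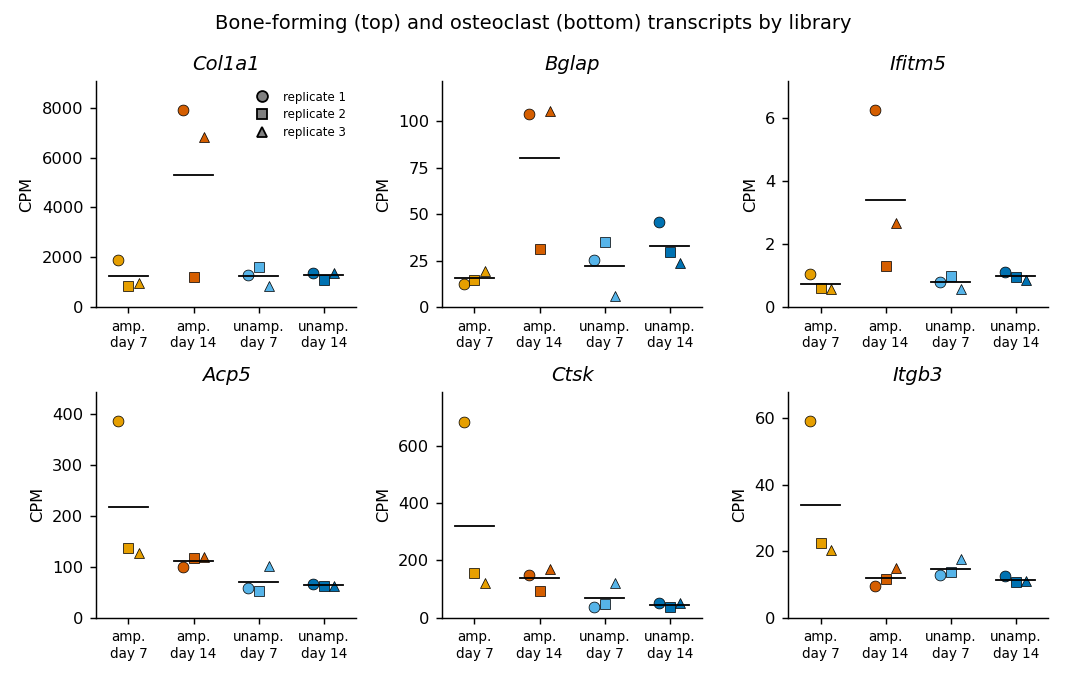
CPM of 3 bone-forming genes (top) and 3 osteoclast genes (bottom) in each second-set library, on linear axes from 0, with points for libraries and bars for group means. Amputated day 14 replicates 1 and 3 stand high for Col1a1 and Bglap, and amputated day 7 replicate 1 stands alone for Acp5, Ctsk and Itgb3.

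Macrophage genes had the same high library. Of 14 tested genes 12 were negative, 3 were lower without overlap, against 7.75% of all genes, and none was called, with a median of -0.33. Day 7 replicate 1 was the highest of its group in 13 of the 14, with a summed level of 1000 CPM against 460 and 426 CPM in the other day 7 libraries and 419, 515 and 500 CPM at day 14. Without it the median was 0.14. Mrc1, the mannose receptor, was at 23.6, 24.9 and 29.0 CPM at day 14 and 48.7, 32.2 and 30.4 CPM at day 7 (log2 fold change -0.52, adjusted p = 0.203). Csf1, the growth factor of macrophages and osteoclasts, had a log2 fold change of -0.51 ± 0.13 (SE, adjusted p = 0.122).

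Of the 5 genes that fell, Plin4 is known for its role on adipocyte lipid droplets. It was at 20.8, 17.2 and 17.5 CPM at day 14 and 28.3, 36.2 and 41.9 CPM at day 7, with a log2 fold change of -0.94 ± 0.16 (SE, adjusted p = 0.0178). Its unamputated libraries spanned 32.3 to 47.1 CPM. All 11 tested adipocyte genes were negative, with a median of -0.44, and 4 were lower without overlap, against 7.75% of all genes. Plin4 was the 1 called, where 0.0286% of all genes were called lower. Day 14 replicate 2 was the highest of its group in 8 of the 11, with a summed level of 334 CPM against 222 and 223 CPM. The day 7 sums were 358 to 365 CPM. Lpl, the lipoprotein lipase, was at 53.7, 64.0 and 52.2 CPM against 89.4, 80.7 and 74.2 CPM, without overlap (log2 fold change -0.52 ± 0.12 SE, adjusted p = 0.0908). Adipoq overlapped between the groups, at 9.07, 19.4 and 9.50 CPM against 16.4, 18.1 and 16.8 CPM.

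Grk3, a kinase of G protein-coupled receptors, was at 17.1, 14.7 and 15.8 CPM at day 14 and 23.9, 27.9 and 30.5 CPM at day 7, a log2 fold change of -0.79 ± 0.15 (SE, adjusted p = 0.0315). Csf2rb2, a mouse interleukin 3 receptor subunit, was at 14.1, 12.1 and 13.6 CPM against 24.4, 19.5 and 20.6 CPM, a log2 fold change of -0.69 ± 0.13 (SE, adjusted p = 0.0257). In unamputated digits Csf2rb2 spanned 12.4 to 17.6 CPM, so that the day 7 amputated libraries were the high ones. Arhgap45, a GTPase-activating protein of blood cells, was at 9.14, 10.6 and 10.3 CPM against 15.4, 14.9 and 15.2 CPM, a log2 fold change of -0.60 ± 0.11 (SE, adjusted p = 0.0215). The predicted model Gm1600 was the fifth, with under 1 CPM in every library. Leaving out day 7 replicate 2 or 3 ended all 5 calls, and leaving out day 7 replicate 1 raised the number of genes that fell to 16. That number was 3 without day 14 replicate 3, 9 without unamputated day 14 replicate 2 and 13 without unamputated day 7 replicate 3.

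Myelin genes of Schwann cells were mostly lower at day 14. Of 15 tested genes 14 were negative with a median of -0.64, and none was called. Drp2, part of the Schwann cell dystroglycan complex, was at 1.80, 0.662 and 1.56 CPM at day 14 and 2.20, 2.13 and 6.80 CPM at day 7, against 8.32 to 12.5 CPM in the 6 unamputated libraries. The groups did not overlap, with a log2 fold change of -1.45 ± 0.45 (SE, adjusted p = 0.212). Day 7 replicate 3 stood above the other amputated libraries for Drp2, and it was the highest of its group in 10 of the 15 genes. Without it the list median was -0.17.

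Blastema and cell cycle genes gave medians near 0. The 16 blastema mesenchyme genes had a median log2 fold change of 0.13 with 9 positive and none called. Ltbp2, a matrix protein that binds latent growth factors, was at 31.1, 14.6 and 41.4 CPM at day 14 and 15.0, 20.0 and 13.8 CPM at day 7 (log2 fold change 0.84, adjusted p = 0.273), and its low day 14 library was again replicate 2. Lmx1b, a homeobox gene of dorsal limb and nail, had a log2 fold change of -0.68 (adjusted p = 0.263). Medians were 0.05 for 14 mitosis genes, 0.10 for 14 DNA replication genes, 0.02 for 22 Wnt pathway genes and 0.08 for 14 BMP pathway genes, with no call on any of the 4 lists.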

How the data were processed

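The deposited tables hold raw whole-number read counts per Ensembl gene, which the authors aligned to GRCm39, per the submitters' processing notes; no source used here names the aligner or counter. Libraries were strand-specific and polyA-selected, per the labels. Groups came from the labels. No column was left unmapped.

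Counts of the 12 second-set libraries were filtered (filterByExpr), TMM-normalised and fitted as group means with edgeR 4.0.16 (robust quasi-likelihood) in R 4.3.3; contrasts were day 14 minus day 7 in amputated and unamputated digits and their difference. CPM uses TMM-scaled totals. The 17 first-set libraries were fitted apart. Alternatives used DESeq2 1.42.0 and limma 3.58.1. On data simulated for the amputated comparison over 17475 genes, edgeR called 56% of genes changed 2-fold and 82% of genes changed 4-fold. DESeq2 called 61% and 86%, and limma voom 54% and 80%. Of the 17275 genes left unchanged there, edgeR called 10, limma voom 9 and DESeq2 37. Symbols were matched for 55141 identifiers (99.4%).

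Genes named by rule were called, averaged at least 1 CPM, had no overlap and were not predicted models: the 12 largest rises and up to 12 falls (4 met it), and up to 4 members of smallest p per list. Members and lists were chosen with earlier results of these data known. A few genes are not reported here.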

Additional observations from a re-analysis of the deposited data

How the results depend on the processing

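Counts of calls in amputated digits were 104 with RLE size factors, 81 without a low-count filter, 92 with limma voom and 110 with the replicate block, against 106. DESeq2 called 451 (306 higher, 145 lower) and the fit on the amputated libraries alone 70. Genes lower, 5 in the first fit, were 13 without a filter, 22 with limma voom, 3 with the replicate block and 2 in the fit on the amputated libraries alone. Leaving out 1 library at a time gave 3 to 138 calls, 3 to 125 genes higher and 0 to 16 lower. In unamputated digits, with 53 calls, the range was 0 to 70, and there were 21 without a filter, 147 with DESeq2 and 127 with limma voom. The difference between the changes gave 0 calls in every fit but DESeq2, which gave 18, and the first set gave 0 to 0 with libraries left out and 1 with DESeq2. DESeq2 calls in the amputated digits included 104 of the 106, 44 Krtap genes, 9 hard keratin genes, 5 osteoblast genes and 3 osteoclast genes. The cause of these differences was not tested.

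Of the 107 genes followed, 1 changed sign, with a library left out: Ctsk ranged from -1.60 to 0.0098, the latter without day 7 replicate 1. Over all genes, same-numbered samples did not deviate together (correlations of -0.0539 to 0.019). This does not settle whether the numbers pair samples, as summed Krtap levels fell from replicate 1 to replicate 3 at both amputated days. The replicate block gave 79 calls in unamputated digits, against 53. It gave 26 Krtap calls in amputated digits, against 16. The hard keratin median was 0.84 without day 14 replicate 1. On data simulated for the amputated comparison, 56% of genes changed 2-fold were called, so changes of that size could be missed.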
